A study of Homo sapiens with 6 samples.

Results

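The 170 genes described here had higher values in 2 of the 3 arrays of TDNC1-expressing HEK293 cells than in every control array, while the remaining TDNC1 array lay close to the controls. A named gene belonged to the set when the lower of TDNC1 replicates 1 and 2 was at least 0.4 above the highest control on the log2 scale, when TDNC1 replicate 3 was at most 0.2 above that control, and when the mean of the 6 arrays was 5 or more. Each gene was represented by its brightest row. MicroRNA, SLC, HOX, HSP, DNAJ, KIF, PCDH, SCARNA and antisense symbols and 13 single genes were left out by name. The rule chose 170 of the 10287 named genes that met its level and name limits (1.65%), out of 14884 named genes in all. It read the values of all 6 arrays, so the differences given here describe the set and are no test of it.

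Total RNA came from Flp-In T-REx HEK293 cells, a human embryonic kidney line that takes up a construct at one defined genomic position. The first group was 3 arrays of cells stably expressing TDNC1. The second was 3 arrays of cells stably expressing a random control RNA. Stable clones of each kind were pooled, so the groups are not single clones. The labels call each array a biological replicate. They explain neither the name TDNC1, nor whether the inducer was added, nor whether the replicates were separate cultures. Errors therefore cover the spread of these 3 arrays per group, some of which may be technical. In such pooled cells, more RNA per cell and more cells with the RNA cannot be told apart.

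Over all 53617 rows, TDNC1 replicate 3 was unlike TDNC1 replicates 1 and 2. Its median absolute difference was 0.188 and 0.177 from TDNC1 replicates 1 and 2, which differed by 0.134 from each other, and 0.136, 0.161 and 0.156 from control replicates 3, 1 and 2. Its closest array was thus the control with the same number. Of the 11 measured kidney and embryonic markers of HEK293 cells, the mean level was 6.74 to 6.88 in the TDNC1 arrays and 6.67 to 6.70 in the control arrays, above the array medians of 5.16 to 5.22. The means of 6 blood cell markers were 5.84 to 5.94 in TDNC1 and 5.85 to 5.99 in the control, those of 9 epithelial markers 6.52 to 6.66 in TDNC1 and 6.56 to 6.62 in the control, and those of 5 neuronal markers 5.48 to 5.67 in TDNC1 and 5.49 to 5.50 in the control. The means of 5 endothelial markers were 4.20 to 4.24 in TDNC1 and 4.14 to 4.26 in the control. Those of 3 fibroblast markers were 3.65 to 4.09 in TDNC1 and 3.84 to 3.99 in the control, and no marker of these lists was in the set. The kidney and embryonic marker means did not overlap between the groups, and their part in the results was not tested. This was not particular to these markers. The means of the Notch, MondoA and ChREBP, cyclic nucleotide phosphodiesterase and tRNA synthetase lists described further on did not overlap either. Among single genes the rule could choose, all 3 TDNC1 arrays lay above all 3 controls in 10.5%.

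Several members belong to pathways by which cells sense nutrients and growth factors. Insulin and ErbB receptors signal through adaptor proteins to PI3 kinase and AKT, which keep FOXO transcription factors out of the nucleus, and FOXO factors are known to drive genes of these same receptors and adaptors. Glucose sensing by MondoA and ChREBP drives TXNIP, an arrestin-family protein that holds back glucose uptake and binds thioredoxin, while the mTOR complexes and the kinases GCN2 and EEF2K set the rate of protein synthesis.

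Promoters are shown for 4 members: for ZC3H6, which had the widest margin, and for TXNIP, MYB and TFDP2, whose promoters hold a FOXO element in the searched form. Each run covers 250 bases before to 50 bases after the gene's start, 5′ to 3′ on the gene's strand, taken from RefSeq on GRCh38.p14. Capitals mark matches to the searched motifs, given with their shares further on. The regions are chr2:112275347-112275646 on the plus strand for ZC3H6, chr1:145996530-145996829 on the minus strand for TXNIP, chr6:135181058-135181357 on the plus strand for MYB and chr3:142149495-142149794 on the minus strand for TFDP2.
ZC3H6: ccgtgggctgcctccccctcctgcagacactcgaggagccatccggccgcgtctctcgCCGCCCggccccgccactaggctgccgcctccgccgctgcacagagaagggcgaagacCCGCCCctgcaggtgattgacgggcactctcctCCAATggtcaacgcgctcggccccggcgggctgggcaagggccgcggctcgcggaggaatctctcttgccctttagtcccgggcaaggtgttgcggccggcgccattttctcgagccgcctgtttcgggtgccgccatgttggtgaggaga
TXNIP: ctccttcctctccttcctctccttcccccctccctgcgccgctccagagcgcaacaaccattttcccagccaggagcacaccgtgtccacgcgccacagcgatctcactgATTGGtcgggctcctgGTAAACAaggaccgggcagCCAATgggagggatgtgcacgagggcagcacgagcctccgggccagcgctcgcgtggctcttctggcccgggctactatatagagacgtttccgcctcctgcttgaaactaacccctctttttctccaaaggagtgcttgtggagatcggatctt
MYB: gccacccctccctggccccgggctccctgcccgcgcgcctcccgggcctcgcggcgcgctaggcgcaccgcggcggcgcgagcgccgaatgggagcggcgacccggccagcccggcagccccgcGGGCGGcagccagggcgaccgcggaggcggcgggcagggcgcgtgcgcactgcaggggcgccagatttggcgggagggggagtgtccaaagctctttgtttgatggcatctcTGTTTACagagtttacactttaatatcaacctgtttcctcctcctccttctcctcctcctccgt
TFDP2: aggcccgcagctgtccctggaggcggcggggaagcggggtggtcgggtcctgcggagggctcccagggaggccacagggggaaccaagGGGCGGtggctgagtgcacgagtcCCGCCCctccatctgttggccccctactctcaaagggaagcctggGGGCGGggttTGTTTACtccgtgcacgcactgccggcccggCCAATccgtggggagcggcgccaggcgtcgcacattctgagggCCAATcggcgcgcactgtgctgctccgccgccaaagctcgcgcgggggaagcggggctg
The ZC3H6 promoter held a CCAAT box and 2 GC boxes in reverse orientation. The TXNIP promoter held GTAAACA starting 124 bases before the gene's start, between 2 CCAAT boxes of opposite orientation. In MYB the same element lay in reverse 14 bases before the start, and in TFDP2 83 bases before it.

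Relative to the control mean of each gene, the median over the 170 genes was 0.63 in TDNC1 replicate 1, 0.61 in TDNC1 replicate 2 and 0.09 in TDNC1 replicate 3. It was -0.01, 0.002 and 0.03 in control replicates 1, 2 and 3. Over the 10287 genes the rule could choose, each of the 6 arrays had a median from -0.01 to 0.02. The mean of TDNC1 replicates 1 and 2 lay above the control mean by a median of 0.63 (1.54-fold), with a range of 0.44 to 1.49 (1.36-fold to 2.81-fold). It was 1 or more in 5 genes, ZC3H6, TXNIP, TMEM150C, TSPAN2 and ZNF25. TDNC1 replicates 1 and 2 were close to each other, within 0.1 in 119 of the 170 genes. Their median absolute difference was 0.07, against 0.09 over the genes the rule could choose. The rule read the lower of these 2 arrays, so nothing is read from their closeness.

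**Figure D1:**
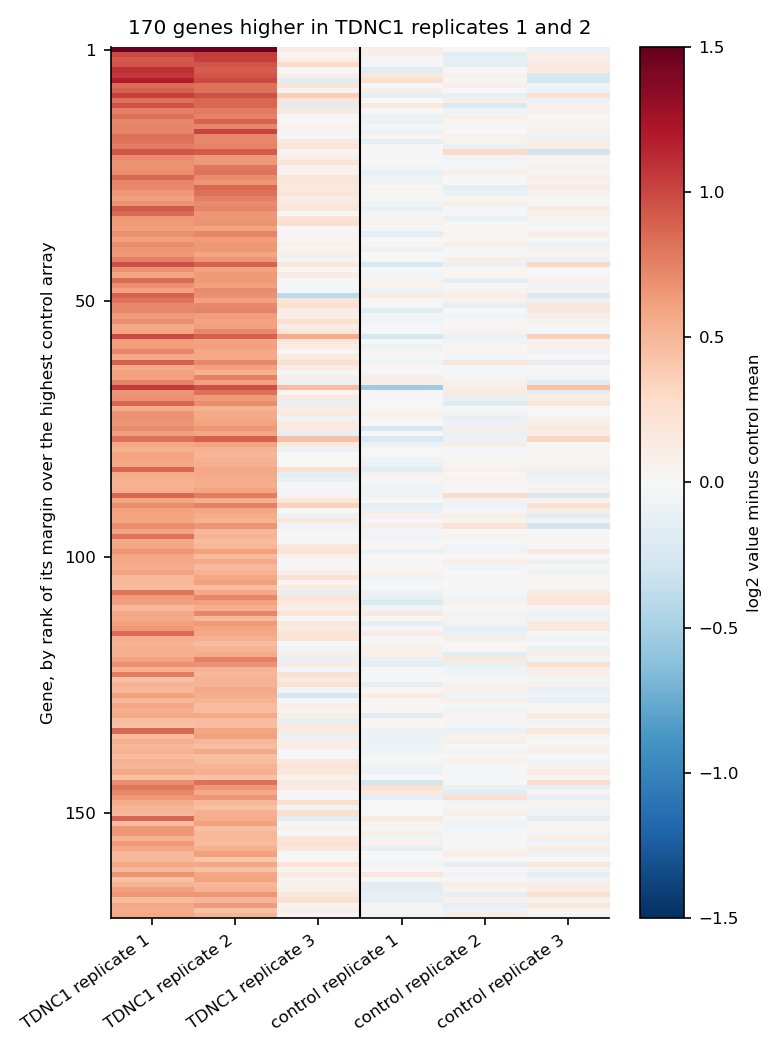
Heat map of the log2 value minus the gene's control mean for 170 genes (rows, by margin over the highest control array) in 6 arrays (columns). TDNC1 replicates 1 and 2 are high in every row because the rule required it, and TDNC1 replicate 3, with a median of 0.09, lies near the controls in most rows.

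TDNC1 replicate 3 was limited by the rule only from above. It lay above the highest control in 87 genes, within the control range in 71 and below the lowest control in 12. It was above the control mean in 132 genes and below it in 38. The difference ran from -0.39 in ZNF449 to 0.55 in CRABP2. All 3 TDNC1 arrays were thus above all 3 controls in 87 members, beside 10.5% of the genes the rule could choose, and nothing is read from that count since the rule used the same arrays.

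None of the 170 genes passed limma's moderated test of TDNC1 against the control with all 6 arrays (Benjamini-Hochberg adjusted p from 0.631 to 0.760 over the members), where 0.00187% of all rows passed. An unadjusted p under 0.05 was found for 119 members, beside 3.74% of all rows with such a p and a higher value in TDNC1. Without TDNC1 replicate 3, ZC3H6 was the 1 member that passed (adjusted p = 0.0303), where 0.0429% of all rows passed. The rule used the same contrast, so none of these counts is support for the set.

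Just inside the margin of 0.4 lay ZFP69B, ZNF83 and CTH, each at 0.40, and just outside it PUS7L, NCOA7 and IFT81, each at 0.40 when rounded and 0.399, 0.399 and 0.398 in full. At the limit on TDNC1 replicate 3, RNF157 and RNF169 (0.20 each) and CRABP2 (0.199) lay inside, and PPIL6 (0.203), H6PD (0.217) and PDE8B (0.224) outside. At the level limit, ARMC3 had the lowest mean inside (5.10) and SLPI the highest outside (4.91). Only 17 genes met the margin in TDNC1 replicates 1 and 2 but were left out for a higher TDNC1 replicate 3, of 187 that met the margin (1.82% of the genes the rule could choose). TDNC1 replicates 1 and 2 both lay above all controls, by any amount, in 27.6% of those genes, and in all 170 members by the rule.

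Among zinc finger and transcription factors, 14 members had a median difference of 0.61 between TDNC1 replicates 1 and 2 and the control. ZC3H6, a CCCH zinc finger protein of the kind that binds RNA, stood at 7.97 and 7.96 in TDNC1 replicates 1 and 2 and at 6.60 in replicate 3, against 6.56, 6.49 and 6.37 in the control arrays. The first 2 arrays were alone in being high, and replicate 3 was just above the highest control. Its mean over all arrays was 7.51 ± 0.79 in TDNC1 and 6.48 ± 0.10 in the control (SD, n = 3 each), a log2 difference of 1.03 (SE 0.35). The other 21 measured genes of the CCCH list held no member. The median difference of TDNC1 replicates 1 and 2 from the control over the list's 22 genes was -0.004, beside 0.01 over all named genes.

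ZNF25, a zinc finger protein, stood at 8.29 and 8.10 in TDNC1 replicates 1 and 2 and at 7.20 in replicate 3, against 7.03, 7.22 and 7.34 in the control. ZNF711, an X-linked zinc finger transcription factor, was among the brightest members, at 11.68, 11.59 and 10.82 in TDNC1, against 10.86, 10.77 and 10.70 in the control. In both genes replicate 3 lay within the control range. ZNF449 had the lowest replicate 3 of all members relative to the control, at 6.13 after 7.40 and 7.20 in TDNC1 replicates 1 and 2, against 6.64, 6.61 and 6.29 in the control. MYB, a transcription factor of progenitor cells, had 6.59, 6.60 and 5.87 in TDNC1, against 6.10, 6.06 and 5.94 in the control, so its replicate 3 was also below every control. TFDP2, a partner of E2F factors, had 8.54, 8.45 and 7.94 in TDNC1, against 7.94, 7.96 and 7.94 in the control. Of 491 measured genes with ZNF symbols, 6 were members (1.22%), beside 1.14% of all named genes, so zinc finger genes held about the share of the whole table.

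**Figure D2:**
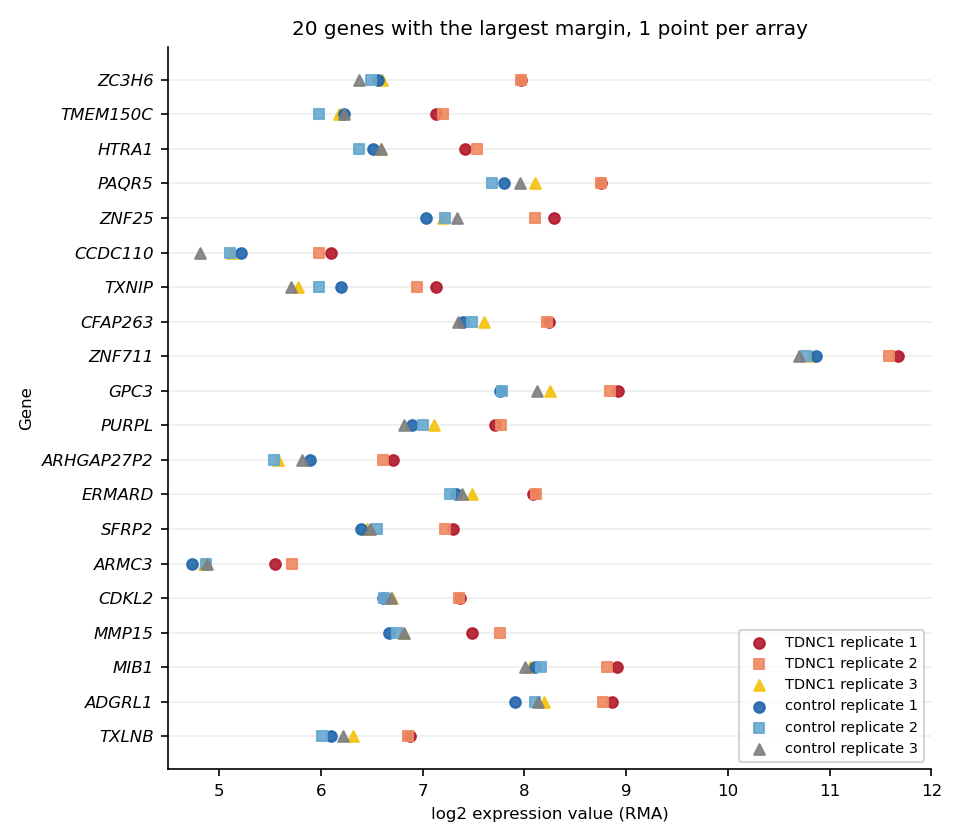
The 20 genes with the largest margin, 1 row per gene, with the RMA log2 value of each array on the horizontal axis and 1 point per array. In each row TDNC1 replicates 1 and 2 lie to the right, as the rule required, and TDNC1 replicate 3 lies among or just above the control arrays, for example at 6.60 beside 6.56, 6.49 and 6.37 for ZC3H6.

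Growth factor and cytokine signalling contributed 13 members with a median difference of 0.61. ErbB receptors were represented by ERBB3, EGFR and ERBB4. ERBB3, which signals to PI3 kinase as a partner of other ErbB receptors, stood at 6.50 and 6.45 in TDNC1 replicates 1 and 2 and at 5.90 in replicate 3, against 5.80, 5.75 and 5.83 in the control. EGFR, the receptor for epidermal growth factor, had 7.10, 7.01 and 6.67 in TDNC1, against 6.54, 6.46 and 6.52 in the control. ERBB4, a neuregulin receptor, had 7.83, 7.85 and 7.53 in TDNC1, against 7.26, 7.34 and 7.40 in the control. In these 3 receptors replicate 3 lay above all controls and nearer to them than to the other TDNC1 arrays.

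The insulin receptor INSR had 7.89, 7.90 and 7.44 in TDNC1, against 7.21, 7.39 and 7.31 in the control. Its adaptor IRS2 had 7.88, 7.88 and 7.51 in TDNC1, against 7.25, 7.17 and 7.47 in the control, where control replicate 3 lay close under TDNC1 replicate 3. ENPP1, a membrane phosphodiesterase known to hold back the insulin receptor, had 9.72, 9.68 and 9.27 in TDNC1, against 9.16, 9.17 and 9.17 in the control. ERBB3, INSR and IRS2 were the members among 19 measured genes of the list of FOXO targets and PI3 kinase feedback. That is 15.8%, beside 1.14% of all named genes and 1.65% of the genes the rule could choose. The list was chosen with earlier results of these data known, so the share describes 3 genes and is no test. The list as a whole had a median difference of 0.02 in TDNC1 replicates 1 and 2, with 10 of 19 genes above 0, and 0.01 was the median over all named genes. BCL2L11, the apoptosis inducer BIM, and FOXO3 of the same list had differences of -0.49 and -0.42.

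Among cytokine receptors, IL6R, the receptor for interleukin 6, stood at 7.22, 7.19 and 6.31 in TDNC1 and at 6.30, 6.56 and 5.98 in the control. OSMR, a receptor subunit for oncostatin M, had 7.14, 7.08 and 6.56 in TDNC1, against 6.19, 6.53 and 6.58 in the control. The controls of both genes spread widely, and replicate 3 of TDNC1 lay within them. BMP6, a bone morphogenetic protein, had 8.26, 8.24 and 7.81 in TDNC1, against 7.65, 7.57 and 7.70 in the control. MRAS, a small GTPase of the RAS family, had its replicate 3 below all controls, with 5.59, 5.51 and 4.72 in TDNC1, against 5.08, 4.90 and 4.93 in the control.

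A Notch ligand and the enzyme that activates such ligands were both members. JAG2 had 8.46, 8.60 and 7.95 in TDNC1, against 7.82, 7.86 and 7.85 in the control. MIB1, a ubiquitin ligase that acts on Notch ligands in the sending cell, had 8.91, 8.82 and 8.06 in TDNC1, against 8.11, 8.16 and 8.01 in the control. Of 22 measured Notch pathway genes, JAG2 was the 1 member, and 0 passed limma with 6 arrays, although the unadjusted p was under 0.05 in 6 genes, each of them higher in TDNC1, beside 683 of all 14884 named genes higher and 380 lower. Their median difference was 0.13 in TDNC1 replicates 1 and 2 and 0.12 in replicate 3, beside 0.01 and 0.004 over all named genes. The receptor genes NOTCH1 and NOTCH3 had 0.35 and 0.58 in TDNC1 replicates 1 and 2 and 0.23 and 0.28 in replicate 3, so the TDNC1 arrays lay closer together there than in JAG2, which had 0.69 and 0.11.

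Nutrient, stress and translation control held 11 members with a median difference of 0.60. TXNIP stood at 7.13 and 6.95 in TDNC1 replicates 1 and 2 and at 5.78 in replicate 3, against 6.20, 5.98 and 5.70 in the control. Replicate 3 was thus below 2 of the 3 controls, 0.18 under their mean, while the first 2 arrays were 1.08 above it (2.11-fold). TXNIP was the 1 member among 14 measured genes of the MondoA and ChREBP list, whose median difference in TDNC1 replicates 1 and 2 was 0.08. ARRDC4 of the same list was left out by name. It had 9.76, 9.80 and 8.41 in TDNC1, against 8.06, 8.11 and 8.14 in the control. Its differences from the control mean were 1.68 in TDNC1 replicates 1 and 2 and 0.31 in replicate 3. A second row of TXNIP was dim, at 4.0, 3.32 and 3.13 in TDNC1, against 3.37, 3.15 and 3.64 in the control, and did not show the pattern.

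DEPTOR, an inhibitory partner of the mTOR kinase, had 6.89, 6.89 and 6.4 in TDNC1, against 6.13, 6.03 and 6.33 in the control. EEF2K, the kinase that halts elongation factor 2, had 8.21, 8.23 and 7.69 in TDNC1, against 7.48, 7.61 and 7.49 in the control. EIF2AK4, which encodes the amino acid sensor GCN2, had 8.52, 8.47 and 7.95 in TDNC1, against 8.02, 8.05 and 7.97 in the control. These are brakes on protein synthesis, and in EIF2AK4 replicate 3 was below every control. ULK2, a kinase that starts autophagy, had 7.40, 7.31 and 6.87 in TDNC1, against 6.90, 6.69 and 6.60 in the control. PDCD4, which holds back translation initiation, had 10.10, 10.09 and 9.76 in TDNC1, against 9.63, 9.64 and 9.63 in the control, with a control range narrower than that of any other gene named in this paragraph. GPR155, a lysosomal membrane protein, had 6.69, 6.81 and 6.06 in TDNC1, against 5.88, 6.08 and 6.01 in the control.

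CTH, which makes cysteine from cystathionine, was the 1 member among 23 measured genes of the ATF4 amino acid list. It had 8.02, 8.10 and 7.50 in TDNC1, against 7.42, 7.33 and 7.62 in the control. The list had a median difference of 0.27 in TDNC1 replicates 1 and 2 and 0.10 in replicate 3, with 16 of 23 genes above 0 in the first. Of its genes 0 passed limma with 6 arrays, while the unadjusted p was under 0.05 in 8, each of them higher in TDNC1, beside the same 683 and 380 of all named genes. ASNS, ASS1, DDIT4, IMPACT and STC2 met the thresholds but were left out by name. With them, NRN1, 2 kinesin genes, 2 SCARNA genes and 4 antisense RNAs, 184 genes met the thresholds. ERN1, the endoplasmic reticulum stress sensor IRE1, was a member at 6.59, 6.58 and 6.15 in TDNC1, against 5.91, 6.17 and 6.17 in the control.

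Secreted and matrix proteins held 12 members with a median difference of 0.71, the highest among the protein groups formed by role. HTRA1, a secreted serine protease, stood at 7.41 and 7.54 in TDNC1 replicates 1 and 2 and at 6.59 in replicate 3, against 6.52, 6.38 and 6.59 in the control. GPC3, a glypican of the cell surface, had 8.92, 8.84 and 8.26 in TDNC1, against 7.76, 7.78 and 8.12 in the control. Its replicate 3 values were the lowest of TDNC1 and the highest of the control, and lay close together. SFRP2, a secreted Wnt antagonist, had 7.30, 7.22 and 6.46 in TDNC1, against 6.4, 6.55 and 6.48 in the control. TNC, the matrix glycoprotein tenascin C, had 7.29, 7.11 and 6.29 in TDNC1, against 6.41, 6.24 and 6.59 in the control.

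The proteoglycan gene VCAN had 8.91, 8.87 and 8.21 in TDNC1, against 8.38, 8.39 and 8.15 in the control. MMP15, a membrane-bound matrix metalloproteinase, had 7.48, 7.76 and 6.80 in TDNC1, against 6.67, 6.75 and 6.82 in the control. IGFBP7, an insulin-like growth factor binding protein, had 7.75, 7.83 and 7.31 in TDNC1, against 7.0, 7.04 and 7.29 in the control. In these genes, too, replicate 3 of TDNC1 lay within or just above the control range. HTRA1, IGFBP7 and the secreted glycoprotein gene STC1 were the members among 15 measured genes of the list of HtrA proteases and insulin-like growth factor binding, and HTRA1 had the widest margin of them. IGF1 of that list had differences of -0.36 in TDNC1 replicates 1 and 2 and -0.40 in replicate 3. The members of this list and of the FOXO list are 3 genes each.

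Membrane, adhesion and ion handling proteins held 14 members. TMEM150C, a membrane protein linked to mechanically gated currents, stood at 7.13 and 7.20 in TDNC1 replicates 1 and 2 and at 6.18 in replicate 3, against 6.23, 5.98 and 6.23 in the control, a 2.03-fold difference of the first 2 arrays. PAQR5, a membrane progestin receptor, had 8.75, 8.75 and 8.10 in TDNC1, against 7.80, 7.68 and 7.96 in the control. ADGRL1, an adhesion receptor of the latrophilin family, had 8.87, 8.77 and 8.19 in TDNC1, against 7.91, 8.11 and 8.13 in the control. TSPAN2, a tetraspanin, differed by 1.01 in TDNC1 replicates 1 and 2, but its controls ran from 5.57 to 6.55 and its TDNC1 replicate 3 stood at 6.57. The group's smallest difference was that of PIEZO2, a mechanically gated channel, at 0.50.

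Genes of the cilium and centrosome were 9 members with a median difference of 0.62. CFAP263, a cilia and flagella protein, had 8.24, 8.22 and 7.60 in TDNC1, against 7.40, 7.49 and 7.35 in the control. CEP290, which forms the gate at the base of the cilium, had 8.79, 8.66 and 7.95 in TDNC1, against 8.14, 8.12 and 7.87 in the control. IFT74, a subunit of the intraflagellar transport complex, had 7.81, 7.80 and 7.30 in TDNC1, against 7.10, 7.21 and 7.26 in the control. Its partner IFT81 was the gene just outside the margin at 0.398. ARL3, a ciliary GTPase, had 8.89, 9.01 and 8.48 in TDNC1, against 8.26, 8.34 and 8.27 in the control. UNC119B, a carrier of lipid-bearing cargo that ARL3 unloads, had 8.31, 8.26 and 7.90 in TDNC1, against 7.64, 7.70 and 7.84 in the control.

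Chromatin, DNA repair and chromosome cohesion was the largest of these groups with 17 members, and its median difference of 0.53 was the lowest. HLTF, a helicase-like ligase of replication fork repair, had 10.32, 10.23 and 9.53 in TDNC1, against 9.57, 9.65 and 9.48 in the control. SMC1A, a core cohesin subunit, had 11.14, 11.06 and 10.67 in TDNC1, against 10.64, 10.64 and 10.65 in the control, and ESCO1, which acetylates cohesin, had 8.24, 8.37 and 7.74 in TDNC1, against 7.76, 7.82 and 7.68 in the control. The controls of SMC1A spanned under 0.01 and TDNC1 replicate 3 lay 0.02 above their mean. ATRX, a chromatin remodeller, had 8.60, 8.58 and 8.02 in TDNC1, against 8.0, 8.12 and 7.93 in the control. POLI, a translesion DNA polymerase, had 8.33, 8.09 and 7.37 in TDNC1, against 7.42, 7.48 and 7.63 in the control, and ETAA1, an activator of the ATR kinase, had 7.44, 7.40 and 6.66 in TDNC1, against 6.81, 6.70 and 6.91 in the control. In POLI and ETAA1 replicate 3 was below every control.

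Enzymes of small molecule metabolism were 14 members with a median difference of 0.63. SAT1, which acetylates spermidine and spermine, had 10.87, 10.93 and 10.39 in TDNC1, against 10.24, 10.31 and 10.30 in the control. TXNRD3, a thioredoxin and glutathione reductase, had 7.39, 7.44 and 6.74 in TDNC1, against 6.58, 6.75 and 6.81 in the control. ADA, adenosine deaminase, had 7.81, 7.87 and 7.45 in TDNC1, against 6.97, 7.03 and 7.33 in the control. In ADA control replicate 3 lay nearer to TDNC1 replicate 3 than to the other controls.

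Of the 170 members, 163 encode proteins, 6 are long noncoding RNAs and 1 is a transcribed pseudogene (95.9% protein-coding, beside 93.4% of the genes the rule could choose). PURPL, a long noncoding RNA known as a p53-induced regulator of p53, had 7.72, 7.77 and 7.11 in TDNC1, against 6.90, 7.0 and 6.81 in the control. None of the 12 measured p53 target genes of the list was a member, and their median difference in TDNC1 replicates 1 and 2 was -0.15. ARHGAP27P2, the pseudogene, had 6.71, 6.61 and 5.58 in TDNC1, against 5.90, 5.53 and 5.82 in the control, and its probes may also read the parent gene. EWSAT1 was the 1 noncoding member with a further row, which differed in the same direction by 0.62 at a dim level.

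The further members with large margins given here were mostly outside the role groups. PTGR1 was counted among the enzymes of small molecule metabolism and HIVEP2 among the zinc finger and transcription factors. CCDC110, a coiled-coil protein, had 6.10, 5.99 and 5.13 in TDNC1, against 5.22, 5.11 and 4.81 in the control. ERMARD, a protein of the endoplasmic reticulum membrane, had 8.08, 8.11 and 7.49 in TDNC1, against 7.33, 7.27 and 7.39 in the control. CDKL2, a kinase related to cyclin-dependent kinases, had 7.37, 7.36 and 6.70 in TDNC1, against 6.61, 6.62 and 6.69 in the control. TDNC1 replicate 3 was above every control in ERMARD and CDKL2 and within them in CCDC110. DHX32, a protein of the DEAH-box helicase family, had 8.68, 8.61 and 8.11 in TDNC1, against 7.89, 7.94 and 8.01 in the control. TXLNB, a taxilin, had 6.87, 6.85 and 6.32 in TDNC1, against 6.10, 6.01 and 6.22 in the control. PTGR1, a prostaglandin reductase, had 7.32, 7.33 and 6.88 in TDNC1, against 6.72, 6.57 and 6.73 in the control. In these 3 genes replicate 3 also lay above every control. RNF213, a very large ubiquitin ligase, had 8.32, 8.26 and 7.67 in TDNC1, against 7.64, 7.68 and 7.50 in the control. DCAF10, a substrate receptor of CUL4 ubiquitin ligases, had 8.03, 7.99 and 7.41 in TDNC1, against 7.38, 7.41 and 7.40 in the control. HIVEP2, a zinc finger transcription factor, had 8.53, 8.55 and 7.97 in TDNC1, against 7.93, 7.95 and 7.89 in the control. In RNF213 replicate 3 was within the control range, and in DCAF10 and HIVEP2 it was within 0.05 of the control mean. AHNAK2, MEIOC and R3HDM2 differed by 0.74, 0.76 and 0.65 in TDNC1 replicates 1 and 2, and by 0.18, 0.01 and 0.05 in replicate 3.

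**Figure D3:**
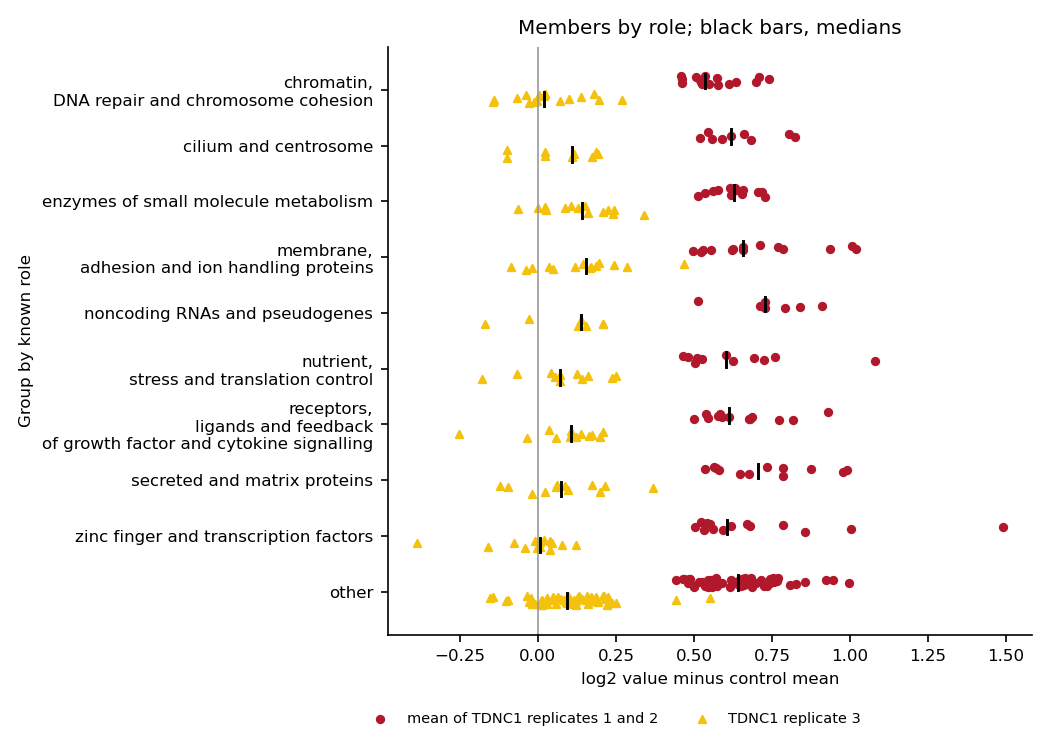
Differences from the control mean (horizontal axis, log2) for the 170 genes grouped by known role (rows), with 1 red point per gene for the mean of TDNC1 replicates 1 and 2, 1 yellow triangle for TDNC1 replicate 3 and black bars for medians. The red medians lie between 0.53 for chromatin and repair genes and 0.73 for noncoding RNAs and pseudogenes, and the yellow ones between 0.01 and 0.15.

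Control replicate 3 was not the same as the other controls in all members. It was the highest control in 85 of the 170 genes (50.0%), beside 43.3% of the genes the rule could choose. In 14 members it was at least 0.2 above both other controls. The matching share of the genes the rule could choose was not worked out, so nothing is read from that count. CRABP2, which binds retinoic acid in the cytosol, stood at 8.61, 8.51 and 8.17 in TDNC1 and at 7.35, 7.52 and 7.97 in the control. VSTM2B had 7.09, 7.18 and 6.72 in TDNC1, against 6.05, 6.18 and 6.59 in the control. In both genes the arrays numbered 3 of the groups lay next to each other, between the other TDNC1 arrays and the other controls.

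Members lay on longer genes than most. The median length on the genome was 51.4 kb for the 170 genes, 8.98 kb for 154 genes with the same thresholds turned round (lower in TDNC1 replicates 1 and 2), and 25.9 kb for the genes the rule could choose. Among protein-coding genes alone the medians were 54.0, 8.98 and 27.7 kb in the same order. Of the members 25.3% were longer than 100 kb and 8.82% shorter than 10 kb, beside 4.55% and 57.1% of the lower genes and 16.9% and 25.7% of the genes the rule could choose. ERBB4 was the longest member, at 1163.086 kb. With the genes the rule could choose split by length into 4 equal parts, the longest (66.4 kb and more) held 64 members and 12 of the lower genes, and the shortest (9.73 kb and less) held 15 members and 86 of the lower genes.

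The arrays themselves differed along gene length. Over all genes of the longest of the 4 parts, the median difference from the control mean was 0.11 and 0.07 in TDNC1 replicates 1 and 2 and 0.01 in TDNC1 replicate 3, and between -0.004 and 0.01 in the controls. Over the shortest it was -0.04 and -0.03 in TDNC1 replicates 1 and 2 and 0.01 in replicate 3, and between -0.02 and 0.02 in the controls. Among the genes the rule could choose, TDNC1 replicates 1 and 2 thus had higher median values for long genes and lower ones for short genes. The part of these shifts in the members' values was not tested.

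**Figure D4:**
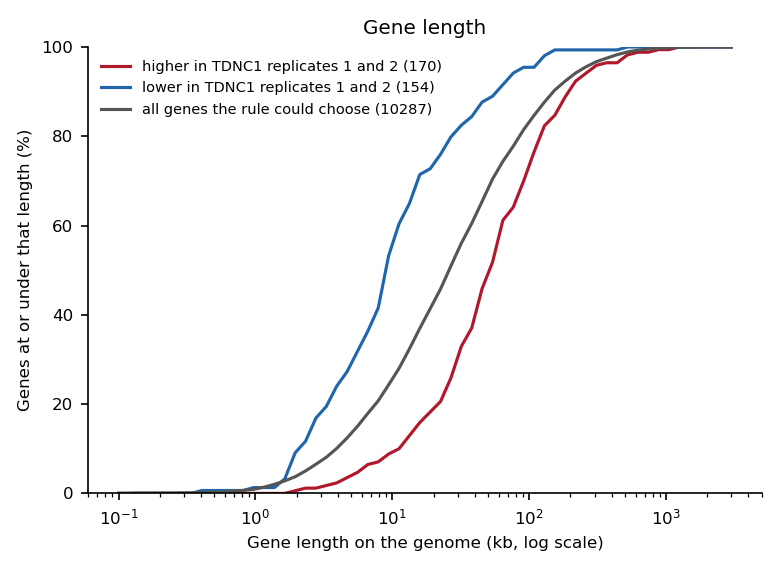
Cumulative share of genes (vertical axis, %) at or under a given length on the genome (horizontal axis, kb, log scale) for the 170 genes higher in TDNC1 replicates 1 and 2, the 154 lower there and the 10287 genes the rule could choose. The curve of the higher genes lies to the right, with a median of 51.4 kb, and that of the lower genes to the left, with a median of 8.98 kb.

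The members were spread unevenly over the chromosomes. Chromosome X held 16 of them (5.05% of its 317 genes the rule could choose) and chromosome 18 held 9 (5.96% of 151), beside 1.65% overall. The X-linked members were ACOT9, ATRX, BRWD3, CUL4B, DOCK11, EMD, GPC3, LRCH2, MAP7D2, MORC4, SAT1, SCML1, SMC1A, TSPYL2, ZNF449 and ZNF711. Those of chromosome 18 were ANKRD29, CCBE1, DSC2, ESCO1, MEX3C, MIB1, OSBPL1A, PIEZO2 and POLI. Chromosome 10 had 13 members (3.16%) and chromosome 12 had 16 (3.09%), while chromosome 7 had EGFR alone (0.201%) and chromosome 21 had 0 of 115 genes. The lower genes had 0 on chromosome 18, 6 on chromosome X (1.89%) and 26 on chromosome 19 (3.04%), where 9 members lay (1.05%).

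Over all its genes the rule could choose, chromosome 18 had a median difference of 0.09 and 0.07 in TDNC1 replicates 1 and 2 and 0.003 in replicate 3, and between -0.01 and 0.02 in the controls. Chromosome X had 0.08 and 0.07 in TDNC1 replicates 1 and 2 and 0.02 in replicate 3, and between -0.02 and 0.03 in the controls. Chromosomes 18 and X were not alone in this. In TDNC1 replicates 1 and 2 chromosome 4 had 0.09 and 0.06 and chromosome 5 had 0.10 and 0.05. Members were 2.5% of the genes on chromosome 4 and 1.61% on chromosome 5. Chromosome 19 had -0.05 in both arrays, and the medians over all genes the rule could choose were 0.02 and 0.01. The median gene length was 50.8 kb on chromosome 18, 27.3 kb on chromosome X and 14.5 kb on chromosome 19, beside 25.9 kb over all, and the part of length in these shares was not tested. In 4 cases members were neighbours among the genes the rule could choose. They were PAQR5 and UACA on chromosome 15, MMD and TMEM100 and also ARHGAP27P2 and AMZ2 on chromosome 17, and ACOT9 and SAT1 on chromosome X. How many neighbours a set of this size would hold anyway was not worked out, so nothing is read from that count.

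**Figure D5:**
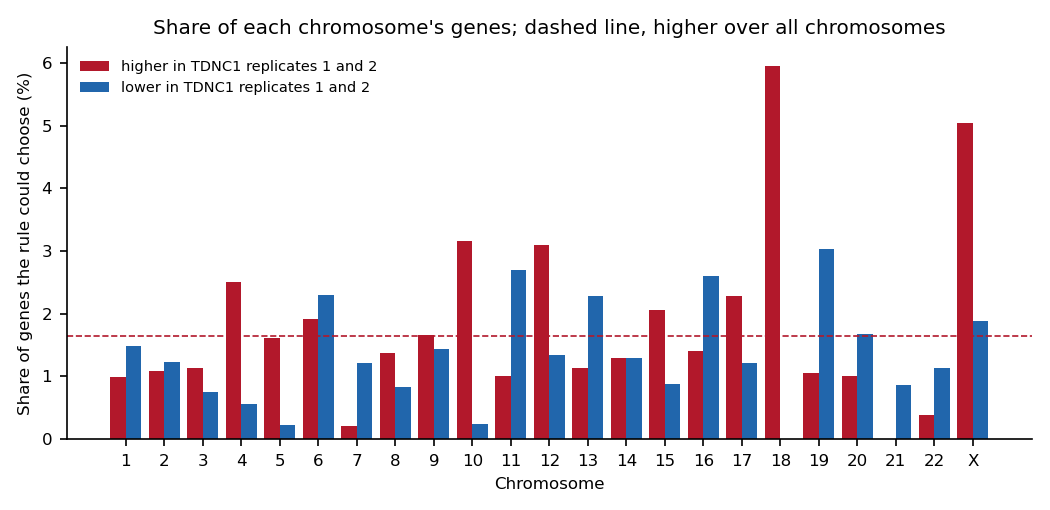
Share of each chromosome's genes (vertical axis, %, among genes the rule could choose) that were higher (red) or lower (blue) in TDNC1 replicates 1 and 2 than in all controls by the same thresholds. Chromosomes 18 and X stand highest for the higher genes, at 5.96% and 5.05%, and chromosome 19 for the lower ones, at 3.04%.

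Promoters were found in the RefSeq table for 133 members, 128 of the lower genes and 8194 of the genes the rule could choose. The median GC content was 67.3%, 65.3% and 65.0% in the same order. Each motif was searched on both strands, and a match is a description of the letters alone. The FOXO element GTAAACA was in 4.51% of the member promoters (BTBD8, MYB, PURPL, TCP11L2, TFDP2 and TXNIP), 1.56% of those of the lower genes, 2.37% of those the rule could choose and 2.62% of all 10749 promoters of named genes. These letters were not in the window of INSR or IRS2.

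The core of ETS sites, CCGGAAG, was in 10.5% of member promoters, 28.1% of those of the lower genes and 17.7% of those the rule could choose (15.0% of all). In that order, the E-box CACGTG was in 9.02%, 18.8% and 9.95% (9.02% of all), and the hypoxia response core NACGTGN, which overlaps every E-box, in 18.8%, 35.2% and 25.8% (24.4% of all). The CCAAT box was in 41.4%, 46.9% and 35.9% (36.0% of all) and the GC box GGGCGG in 72.2%, 69.5% and 68.5% (60.5% of all). The YY1 element AAGATGGC was in 2.26%, 7.81% and 5.02% (4.10% of all), TATAAA in 2.26%, 3.91% and 5.88% (8.49% of all), GCGCATGC of NRF1 in 4.51%, 6.25% and 5.36% (4.55% of all) and the cyclic AMP response element TGACGTCA in 2.26%, 4.69% and 3.09% (2.62% of all). The ATF4 and C/EBP composite TGATGNAAN was in 2 member promoters, EWSAT1 and SYT9 (1.5%), beside 0.781%, 1.68% and 2.24%.

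A further row on the array existed for 9 member genes. The difference of TDNC1 replicates 1 and 2 from the control was above 0 in 6 of these 9 rows, and the margin of 0.4 was met in 0 of them. In 6 of the 9 the mean was under 5. HLTF, bright in its chosen row, had a second row with a difference of -0.03, and VCAN one with -0.16. The further row of EWSAT1 had 4.75, 4.81 and 4.08 in TDNC1, against 4.21, 3.78 and 4.49 in the control, so TDNC1 replicates 1 and 2 lay above all controls there too, by 0.25.

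Members were absent from most other lists. The lists of cytosolic tRNA synthetases, hypoxia and glycolysis, circadian clock, cyclic nucleotide phosphodiesterases and Wnt feedback held 0 members. So did those of small nucleolar RNA host genes, transcript surveillance, voltage-gated ion channels, immediate early genes, interferon response and mitosis. In TDNC1 replicates 1 and 2 the median difference over all 14884 named genes was 0.01, 7719 of them above 0, and 0.004 in replicate 3. It was 0.21 over 24 measured hypoxia and glycolysis genes, 22 of them above 0, and 0.02 in replicate 3. It was -0.22 over 20 immediate early genes, 3 of them above 0, and 0.23 in replicate 3. Control replicate 3 was high with TDNC1 replicate 3 in several of these genes, which raises the control mean they are set against. EGR1, a zinc finger factor induced by growth signals, had 6.79, 6.84 and 9.13 in TDNC1, against 7.51, 7.50 and 9.08 in the control, and CCN2, a matrix-associated growth regulator, had 5.84, 5.70 and 7.31 in TDNC1, against 5.78, 5.67 and 7.03 in the control. The highest array mean over the list was 7.70 in TDNC1 and 7.75 in the control. EGR1 and CCN2 were chosen after their values were seen. None of these genes passed limma with 6 arrays. An unadjusted p under 0.05 was found in 3 hypoxia and glycolysis genes, each higher in TDNC1, and in 0 immediate early genes. Of all named genes, 683 were higher and 380 lower with such a p. The list of TFEB and mTORC1 regulators held 1 member, DEPTOR, among 25 measured genes, and TMEM symbols held 3 among 220 (1.36%).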

How the data were processed

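The deposited log2 values were made by the authors with RMA. The submitters' processing notes name Affymetrix Power Tools. Its version, and the annotation and build, were not given in the sources used here. That the values are log2 was judged from their range. RMA gives all arrays the same probe distribution, which would take out a shift shared by most transcripts, and it compresses the differences of dim rows. Arrays have no sequencing depth; the 3 arrays per group limit the precision.

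Of 53617 rows, 16098 were named through the platform annotation and the RefSeq GRCh38.p14 gene table, which also gave lengths, chromosomes and promoters. Differences are TDNC1 minus control. The moderated test of limma 3.58.1, run in R 4.3.3 (two-sided, Benjamini-Hochberg over all rows, threshold 0.05), was fitted to all 6 arrays with no covariate and tested on simulated data. Alternatives changed the scaling, variance model, array weights, filters, thresholds of the rule and arrays. Members, gene lists and motifs were chosen with earlier results of these data known. Named were the 40 members with the largest margin, some members of the 27 lists or with further features, and, by role after their values were seen, other members. Role groups were also formed then. Lists held 3 to 491 measured genes.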

Additional observations from a re-analysis of the deposited data

Results flagged for a closer look

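Rows with no gene name here were not used for the set, and 223 of the 16722 such rows with a mean of 5 or more (1.33%) met the same thresholds, beside 184 of 11881 named rows (1.55%). In 13 unnamed rows the margin was larger than that of ZC3H6, and the 3 widest stood far above the control arrays. Row 16819747 had 10.34, 10.38 and 6.89 in TDNC1, against 6.77, 6.98 and 7.39 in the control, a margin of 2.94 of the lower of TDNC1 replicates 1 and 2 over the highest control. Row 16942367 had 8.12, 8.02 and 5.2 in TDNC1, against 5.16, 4.32 and 4.96 in the control, a margin of 2.86. Row 16899560 had 10.41, 10.45 and 7.21 in TDNC1, against 7.23, 7.73 and 7.75 in the control, a margin of 2.66. All 3 were low in TDNC1 replicate 3.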

How the results depend on the processing

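The number of members followed the margin, with 332 genes at 0.3 and 74 at 0.5 in place of the 170 at 0.4. It stayed between 136 and 210 under the other limits, scalings and left-out controls. With each array centred on its median 180 genes met the rule, 158 of them among the 170, and with quantile normalization 177, of which 164. Leaving out 1 array at a time, limma called 1 to 23 rows, with 23 without TDNC1 replicate 3 and 2 without control replicate 3, and 0 to 1 members. Besides ZC3H6 without TDNC1 replicate 3 (limma adjusted p = 0.0303), none of the 40 members with the largest margin passed in any of the 13 alternatives. No sign turned, but the rule, which set TDNC1 replicates 1 and 2 above every control, largely fixed that in advance. The median over the members of TDNC1 minus control was 0.44, and 0.35 to 0.63 with 1 array left out. With the replicate number as a block, limma called 1 row and 0 members. Over all rows, the deviations of same-numbered arrays correlated at 0.04, -0.001 and 0.05, each under 0.1, so the numbers were not taken as pairs, although the arrays numbered 3 were the closest between the groups. Without both of these arrays limma called 1 row and 0 members, and the members' median was 0.64. The ratio of median gene length to the comparison genes was 1.98, and 2.48 against all named genes.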
